A study of Homo sapiens with 6 samples.

Results

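SR proteins are splicing factors with RNA recognition motifs and an arginine/serine-rich region, and most of them favour the use of exons whose enhancers they bind. Many of their own genes carry a poison exon, an alternative exon whose inclusion brings in a premature stop codon, so that the transcript becomes a target of nonsense-mediated decay (NMD). Several SR proteins promote the inclusion of their own poison exon, which limits how much protein is made. The genes described here are SRSF2, SRSF3, SRSF4, SRSF5, SRSF6, SRSF7, SRSF10, SRSF11, TRA2A and TRA2B, and their members are the skipped-exon events whose middle exon lies on the same strand within the gene in GENCODE 29. There were 32 such events of 47986 in the series, and they covered 26 different skipped exons of 40658. They came from 9 of the 10 genes. SRSF5 had no event that met the rule and is not analysed here.

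The cells were MDA-LM2, human breast cancer cells derived from MDA-MB-231 by selection for lung metastasis, harvested 48 h after siRNA transfection. The siSNRPA1 group (3 libraries) targeted SNRPA1, a protein component of the U2 particle of the spliceosome, which binds the intron branch point. The siSNRPB group (1 library) targeted SNRPB, which encodes Sm proteins found in the core ring of most spliceosomal particles. The siCtrl group (2 libraries) received a control siRNA. The deposited values are 1 set per group, called a pool here, so no value has a replicate or a standard deviation, and all 3 pools come from 1 cell line.

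Reads that fit only the inclusion isoform or only the exclusion isoform are called informative. The pools held 7831446 informative reads over all events in siSNRPA1, 3396043 in siSNRPB and 5707839 in siCtrl, and the SR protein exons took 16576, 6321 and 9332 of them in these pools. Over the events of SNRPA1 the isoform-fitting reads (those that fit inclusion, exclusion or both) were 21.9 per 1000000 such reads of the pool (RPM) in siSNRPA1, 272 in siSNRPB and 118 in siCtrl. Over the event of SNRPB they were 337 RPM in siSNRPA1, 30.6 in siSNRPB and 247 in siCtrl, so each targeted gene was low in the pool that its siRNA names. Of 6 genes known for MDA-MB-231 cells, CD44, EGFR and AXL had events, while VIM, MSN and CAV1 had none. CD44 summed to 3432 RPM in siSNRPA1, 3540 in siSNRPB and 3266 in siCtrl, EGFR to 77.5, 59.3 and 89.7 in these pools, and AXL to 103, 77.8 and 137. The summed level of 6 luminal epithelial genes was 13.6 RPM in siSNRPA1, 12.6 in siSNRPB and 18.9 in siCtrl, with CDH1 and GRHL2 at 0 in siSNRPB and ERBB3 without an event.

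By exact match to GENCODE exons, 13 of the 26 exons were NMD-annotated, meaning that they occur in transcripts of the NMD class and in no coding sequence of a protein-coding transcript. A further 7 were coding, 3 lay in noncoding transcripts, 2 were untranslated and 1 had no exact match. The 13 NMD-annotated exons came from SRSF2, SRSF3, SRSF4, SRSF6, SRSF7, SRSF11, TRA2A and TRA2B, with none in SRSF10. In 9 of them the stop codon of the annotated NMD transcript lay inside the exon, between 19 and 149 nt from its 5′ end. In all 9 this was also the first stop codon met when the reading frame of an annotated coding transcript without the exon was carried into it. That carried frame placed a stop in the SRSF4 228-nt exon at 23 nt and in the SRSF11 109-nt exon at 20 nt as well, which made 11 of 13. The SRSF2 exon lies downstream of the annotated stop, and the TRA2A 79-nt exon shifts the frame to a stop in the next exon.

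**Figure D1:**
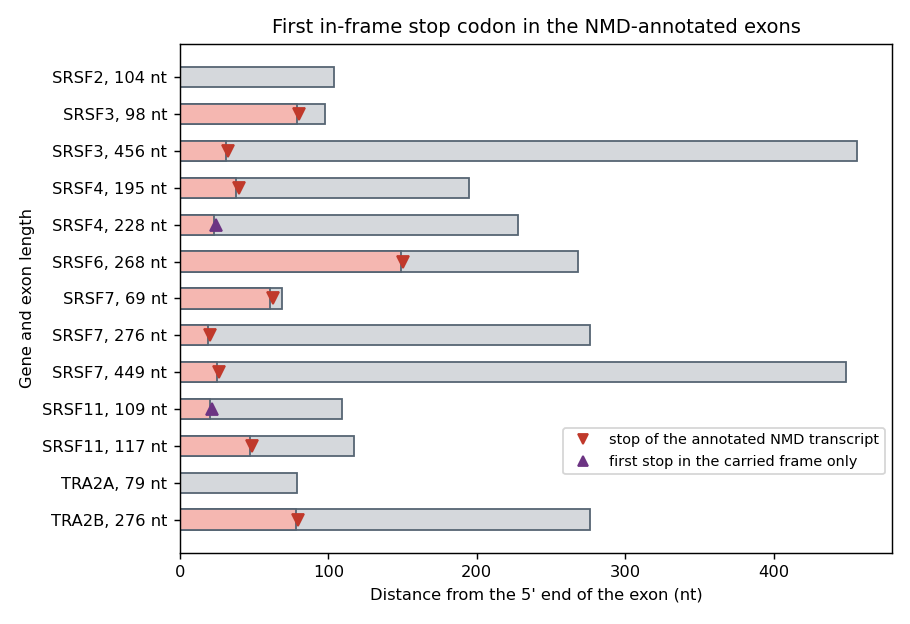
Each bar is 1 NMD-annotated exon of an SR protein gene drawn to scale in nucleotides from its 5′ end, with the stretch before the first stop codon in pink. Downward triangles mark the stop of the annotated NMD transcript (9 exons), and upward triangles mark a stop found only by carrying the frame (2 exons), while SRSF2 and TRA2A have none within the exon.

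The sequences below run 5′ to 3′ from the start of the skipped exon to its stop codon, which is in capitals. They show how early the reading frame ends in the exons whose reads are described afterwards, and were read from GENCODE 29 transcripts on hg38.
SRSF3 456-nt exon, chr6:36599821-36600276, plus strand: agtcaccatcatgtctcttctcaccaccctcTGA
SRSF4 195-nt exon, chr1:29159864-29160058, minus strand: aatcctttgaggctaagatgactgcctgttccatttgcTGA
SRSF6 268-nt exon, chr20:43459153-43459420, plus strand: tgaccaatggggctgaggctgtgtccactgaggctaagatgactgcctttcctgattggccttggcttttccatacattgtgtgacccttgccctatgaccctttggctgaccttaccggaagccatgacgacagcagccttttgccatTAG
SRSF7 276-nt exon, chr2:38748898-38749173, minus strand: ggcagaaaatttgagacggTGA
SRSF7 449-nt exon, chr2:38748898-38749346, minus strand: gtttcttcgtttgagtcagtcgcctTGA
SRSF11 117-nt exon, chr1:70231859-70231975, plus strand: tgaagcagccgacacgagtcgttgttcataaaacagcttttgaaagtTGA
TRA2B 276-nt exon, chr3:185931577-185931852, minus strand: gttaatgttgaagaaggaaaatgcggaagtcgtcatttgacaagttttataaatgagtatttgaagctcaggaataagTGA

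The SRSF4 and SRSF6 exons, on different chromosomes, shared the 20-nt run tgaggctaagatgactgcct, the longest run found among the 26 exons in the 293 pairs from different genes. It started 7 nt into the SRSF4 195-nt exon and 28 nt into the SRSF6 exon. The next longest shared run was 15 nt, between the SRSF7 69-nt and the SRSF3 98-nt exons. The letters GAA, counted on the exon's own strand, occurred 10.1 times per 100 nt in the TRA2B 276-nt exon, 10.3 in the TRA2A 312-nt exon and 10.6 in the TRA2A 301-nt exon, against a median of 1.97 over the 6791 exons with sequence that were tested in any comparison. The 301-nt exon lies within the 312-nt exon, so these 2 counts are of nearly the same sequence. High counts were not limited to the TRA2 genes. The 33-nt exons of SRSF11 had 9.09 and 6.06 per 100 nt, and the TRA2A 79-nt exon had 8.86. TRA2 proteins are known to bind GAA-rich RNA. Of the 26 exons, 18 had a length that is a multiple of 3 (69.2%), against 44.4% of the 7084 exons tested in any comparison. The 26 include overlapping forms of the same exon, and 3 exons that were tested in no comparison. Among NMD-annotated exons it was 7 of 13 (53.8%), against 30.7% of the 1325 tested in any comparison. The median upstream and downstream introns of the 26 exons were 876.5 nt and 875.5 nt long, against 2035 nt and 2045.5 nt for those 7084 exons.

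The inclusion level is the authors' fraction for an exon, 0 where it is always skipped and 1 where it is always included. The share of inclusion reads is the percent of informative reads that fit only inclusion, with its 95% Wilson interval. The level also draws on reads that fit both isoforms, while the share is not corrected for exon length, so the 2 measures can lie far apart. A share is therefore not the fraction of transcripts that include the exon. Inclusion reads can lie wholly inside a long exon, where unspliced RNA was not separated from spliced RNA. An exon was tested where each pool had at least 20 informative reads and both pools together had at least 5 inclusion and 5 exclusion reads. It passed where a two-sided Fisher's exact test gave an adjusted p under 0.05 over all tested exons and the level differed by 0.1 or more, with the same sign as the read shares. "Fell" and "rose" refer to this rule alone. The test compares the reads of 2 pools, and covers counting error only.

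Against siCtrl, none of the 21 SR protein exons tested fell in siSNRPA1 and 1 rose, the TRA2A 79-nt exon, where 12.8% of all 6459 tested exons fell and 4.18% rose. In siSNRPB 3 of 22 fell and none rose, namely 2 overlapping forms of an SRSF10 exon and the TRA2A 90-nt exon, where 16.7% of all 4244 tested exons fell and 4.62% rose. The median difference in inclusion level was -0.02 over the SR protein exons in siSNRPA1 and -0.02 over all tested exons. In siSNRPB it was -0.02 over the SR protein exons and -0.01 over all. Of the 26 exons, 23 were tested in at least 1 comparison, and the SRSF4 90-nt exon, the TRA2B 60-nt exon and an SRSF11 33-nt exon in none. Both comparisons with siCtrl use the same control pool.

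The median siCtrl level of the 13 NMD-annotated exons tested in siSNRPA1 was 0.06, and from a level under 0.1 a fall of 0.1 cannot be reached. A rule without the minimum difference, an adjusted p under 0.05 on the read shares alone, was therefore added after the data had been seen. By that rule 8 SR protein exons had a lower and 3 a higher share of inclusion reads in siSNRPA1 than in siCtrl, of 21, against 22.0% lower and 9.83% higher of all tested exons. In siSNRPB it was 8 lower and 1 higher of 22, against 28.8% lower and 9.17% higher of all. Among the NMD-annotated SR protein exons, 7 of 13 had a lower share and 1 a higher share in siSNRPA1, where 17.9% of all 1243 NMD-annotated exons had a lower and 11.7% a higher share. In siSNRPB the counts were 5 lower and 0 higher of 12, where 22.2% of all 785 NMD-annotated exons had a lower and 10.2% a higher share. Several of these exons are forms of each other and share exclusion reads. Where 1 form lies within another, they can share inclusion reads as well. The counts are therefore not of independent measurements. A call by adjusted p alone also depends on read depth, which was not matched between any sets compared here. Informative reads in siCtrl ran from 34 (SRSF4 195-nt exon) to 1633 (SRSF6 exon) over the 13 exons. The median over all events of that pool, tested or not, was 16. The part of depth in these counts was not tested.

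**Figure D2:**
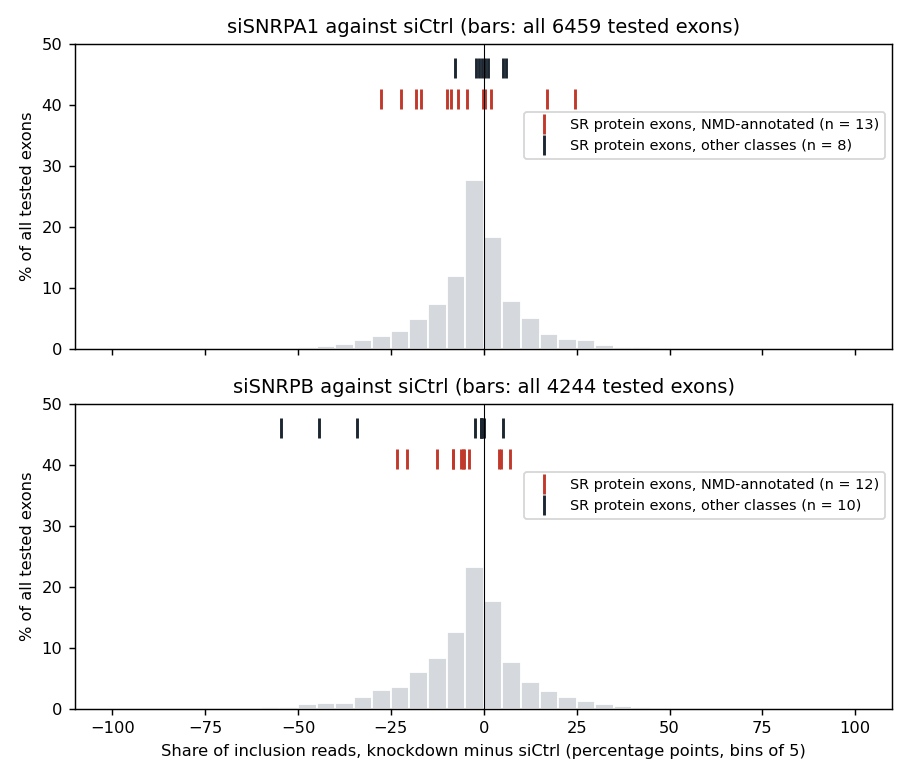
Grey bars give the distribution, in percent of all tested exons, of the difference in the share of inclusion reads (knockdown minus siCtrl, percentage points), and ticks above them mark the SR protein exons, red for NMD-annotated and black for other classes. In siSNRPA1 9 of 13 red ticks lie left of 0 and in siSNRPB 9 of 12, and the ticks farthest left in siSNRPB are the SRSF10 forms and the TRA2A 90-nt exon.

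SRSF6 binds exonic enhancers, and its 268-nt poison exon had the most informative reads of the 13 NMD-annotated exons in each pool. Its inclusion level was 0.03 in siSNRPA1 and 0.03 in siSNRPB, against 0.06 in siCtrl. Inclusion reads were 280 of 3423 informative reads in siSNRPA1 (8.18%, 7.31 to 9.15%), 111 of 1290 in siSNRPB (8.60%, 7.19 to 10.3%) and 277 of 1633 in siCtrl (17.0%, 15.2 to 18.9%). The share was lower than in siCtrl in both knockdowns, with an adjusted p of 5.49e-17 in siSNRPA1 and 1.53e-09 in siSNRPB by Fisher's exact test, although the level moved by 0.03 and so did not pass. For that move the authors' deposited Bayes factor was 1000000000000 in each knockdown. Between siSNRPA1 and siSNRPB the shares differed by -0.42 points (exact test, adjusted p = 0.765). Reads that fit neither isoform made up 17.2% in siSNRPA1, 15.5% in siSNRPB and 21.4% in siCtrl, and their part in the difference was not tested.

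SRSF7, an SR protein with a zinc knuckle that also serves mRNA export, has a poison exon present in a 276-nt and a 449-nt form with the same 3′ end and the same exclusion reads. The 276-nt form had 71 inclusion reads of 333 informative reads in siSNRPA1 (21.3%, 17.3 to 26.0%), 35 of 152 in siSNRPB (23.0%, 17.0 to 30.3%) and 95 of 218 in siCtrl (43.6%, 37.2 to 50.2%). The 449-nt form had 145 of 407 in siSNRPA1 (35.6%, 31.1 to 40.4%), 78 of 195 in siSNRPB (40.0%, 33.4 to 47.0%) and 212 of 335 in siCtrl (63.3%, 58.0 to 68.3%). In each form the intervals of the 2 knockdown pools overlapped each other and lay below that of siCtrl. The adjusted p of the 449-nt form was 9.71e-12 in siSNRPA1 and 4.94e-06 in siSNRPB, and that of the 276-nt form 1.64e-06 in siSNRPA1 and 0.000364 in siSNRPB. Levels were 0.02 in siSNRPA1, 0.03 in siSNRPB and 0.05 in siCtrl for the 276-nt form, and 0.03, 0.04 and 0.07 in these pools for the 449-nt form. The authors' deposited Bayes factor against siCtrl was 1627620207.02 in siSNRPA1 but 3.75 in siSNRPB for the 276-nt form. For the 449-nt form it was 1000000000000 in siSNRPA1 and 126948.6 in siSNRPB. Reads of the 276-nt event that fit neither isoform were 32.8% in siSNRPA1, 37.9% in siSNRPB and 42.7% in siCtrl, and their part was not tested.

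SRSF3, the smallest SR protein and a known activator of its own poison exon, has the 456-nt exon in that role. Its inclusion reads were 810 of 1433 informative reads in siSNRPA1 (56.5%, 53.9 to 59.1%), 331 of 569 in siSNRPB (58.2%, 54.1 to 62.2%) and 512 of 770 in siCtrl (66.5%, 63.1 to 69.7%). The share was again lower in both knockdown pools than in siCtrl (exact test, adjusted p = 9.46e-05 in siSNRPA1 and 0.00835 in siSNRPB), at levels of 0.12 in siSNRPA1, 0.12 in siSNRPB and 0.14 in siCtrl. For these differences in level of -0.02 the authors' deposited Bayes factors were only 1.18 in siSNRPA1 and 0.08 in siSNRPB. The neighbouring 98-nt exon was close to absent, with 14 inclusion reads of 2652 in siSNRPA1, 0 of 823 in siSNRPB, which allows a share of up to 0.365%, and 2 of 1185 in siCtrl. Its shares in siSNRPA1 and siCtrl could not be told apart at this depth (exact test, adjusted p = 0.291).

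SRSF2 acts through exonic enhancers and is known to direct the splicing of the end of its own transcript, where its 104-nt exon at chr17:76735772-76735875 (minus strand) lies. Inclusion reads were 98 of 985 informative reads in siSNRPA1 (9.95%, 8.23 to 12.0%), 50 of 439 in siSNRPB (11.4%, 8.75 to 14.7%) and 118 of 696 in siCtrl (17.0%, 14.3 to 19.9%). The share was lower than in siCtrl in siSNRPA1 (exact test, adjusted p = 0.000413) and in siSNRPB (exact test, adjusted p = 0.0305), with levels of 0.03 in siSNRPA1, 0.05 in siSNRPB and 0.06 in siCtrl. For the differences in level from siCtrl the authors' deposited Bayes factor was 432.93 in siSNRPA1 but 0.12 in siSNRPB. MFSD11 and AC005837.2 lie over this event on the other strand, and no label or header says whether reads were counted by strand, so these reads are uncertain.

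The SRSF2, SRSF3, SRSF6 and SRSF7 exons differed in which side of the count moved, seen as RPM, with no replicate behind any value. For SRSF2 the inclusion reads were 3.58 RPM in siSNRPA1, 4.36 in siSNRPB and 6.36 in siCtrl, while the exclusion reads were 32.4 RPM in siSNRPA1, 33.9 in siSNRPB and 31.1 in siCtrl. For SRSF3 the inclusion reads were 29.6 RPM in siSNRPA1, 28.9 in siSNRPB and 27.6 in siCtrl, and the exclusion reads 22.8 RPM in siSNRPA1, 20.8 in siSNRPB and 13.9 in siCtrl. The lower share thus went with fewer inclusion reads in SRSF2 and with more exclusion reads in SRSF3. For SRSF6 the inclusion reads were 10.2 RPM in siSNRPA1, 9.68 in siSNRPB and 14.9 in siCtrl, and the exclusion reads 115 RPM in siSNRPA1, 103 in siSNRPB and 73.1 in siCtrl. For the SRSF7 449-nt form the inclusion reads were 5.30 RPM in siSNRPA1, 6.80 in siSNRPB and 11.4 in siCtrl, and the exclusion reads 9.57 RPM in siSNRPA1, 10.2 in siSNRPB and 6.63 in siCtrl. In these last genes both sides moved, in opposite directions.

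**Figure D3:**
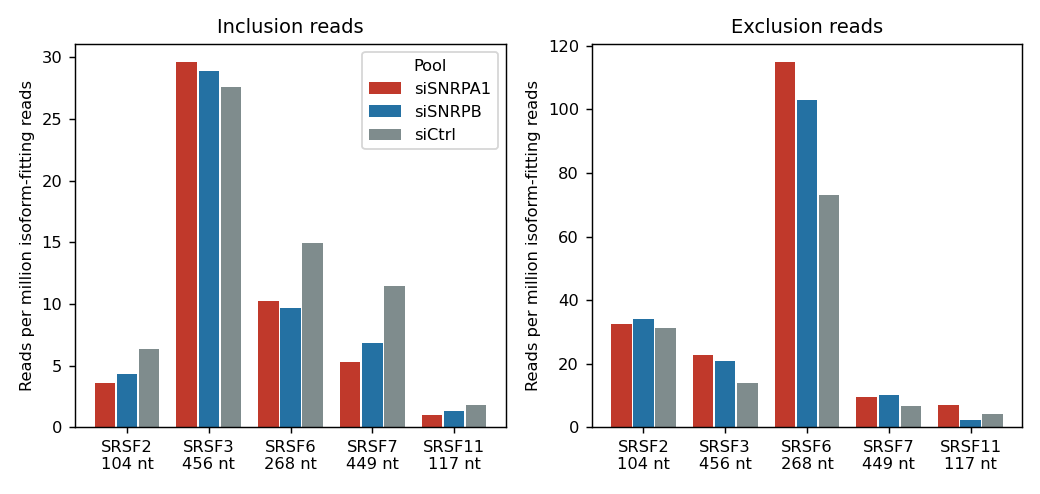
Bars give inclusion reads (left) and exclusion reads (right) per 1000000 isoform-fitting reads of the pool (RPM) for 5 NMD-annotated exons, of each gene the one with the most inclusion reads, with siSNRPA1 in red, siSNRPB in blue and siCtrl in grey, and no error bar because each group is 1 pool. Only genes with an NMD-annotated exon of lower share in siSNRPA1 by adjusted p alone are shown. SRSF4, TRA2A and TRA2B, which also have NMD-annotated exons, are left out. SRSF6 exclusion reads stand at 115 RPM in siSNRPA1 and 103 in siSNRPB, against 73.1 in siCtrl, and SRSF2 exclusion reads are nearly level.

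SRSF11, an arginine/serine-rich splicing factor, has NMD-annotated exons of 109 nt and 117 nt that lie next to each other and share exclusion reads. The 109-nt exon, at chr1:70231095-70231203 (plus strand), had 23 inclusion reads of 217 informative reads in siSNRPA1 (10.6%, 7.17 to 15.4%), 8 of 34 in siSNRPB (23.5%, 12.4 to 40.0%) and 32 of 111 in siCtrl (28.8%, 21.2 to 37.9%). The 117-nt exon had 28 of 222 in siSNRPA1 (12.6%, 8.87 to 17.6%), 15 of 41 in siSNRPB (36.6%, 23.6 to 51.9%) and 33 of 112 in siCtrl (29.5%, 21.8 to 38.5%). Both shares were lower in siSNRPA1 than in siCtrl, with an adjusted p by the exact test of 0.000761 for the 109-nt exon and 0.00232 for the 117-nt exon, and neither test reached the threshold in siSNRPB (exact test, adjusted p = 0.773 for the 109-nt and 0.561 for the 117-nt exon). In the direct test between the knockdowns the 117-nt share was lower in siSNRPA1 than in siSNRPB (exact test, adjusted p = 0.00557), while the 109-nt share missed the threshold (exact test, adjusted p = 0.126). In the events tested the levels differed by at most 0.08 between siSNRPA1 and siCtrl, so neither exon passed. Each of these exons has a second event, with the other as its neighbour, which held no exclusion read in any pool and was not tested. Its level was 0.16 in siSNRPA1, 0.23 in siSNRPB and 0.33 in siCtrl for the 109-nt exon, and 0.15, 0.28 and 0.37 in these pools for the 117-nt exon. For the 2 second events the authors' deposited table gives siSNRPA1 differences of -0.17 and -0.22, with Bayes factors of 3.08 and 48.29. Reads that fit neither isoform of the 109-nt event were 38.2% in siSNRPA1, 53.2% in siSNRPB and 62.4% in siCtrl, a wider spread than in the other genes above, and their part was not tested. The 33-nt exons of SRSF11, in noncoding transcripts, had levels of 0.00 to 0.04, and together 1 inclusion read in siSNRPA1, 0 in siSNRPB and 5 in siCtrl.

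SRSF4 carries a poison exon in 195-nt and 228-nt forms with a common 3′ end. The 195-nt form had 25 inclusion reads of 126 informative reads in siSNRPA1 (19.8%, 13.8 to 27.7%), 5 of 71 in siSNRPB (7.04%, 3.05 to 15.4%) and 1 of 34 in siCtrl (2.94%, 0.521 to 14.9%). The 228-nt form had 24 of 125 in siSNRPA1 (19.2%), 5 of 71 in siSNRPB (7.04%) and 8 of 41 in siCtrl (19.5%). Here no test reached the threshold: the 195-nt form had an adjusted p of 0.0527 in siSNRPA1 against siCtrl and 0.0718 against siSNRPB, and the 228-nt form gave 1 and 0.0719. Levels were 0.04 in siSNRPA1, 0.02 in siSNRPB and 0.01 in siCtrl for the 195-nt form, and 0.04, 0.02 and 0.02 for the 228-nt form. The authors' deposited table gives the 195-nt form a siSNRPA1 difference of 0.03, a move up, with a Bayes factor of 25.03. For the 228-nt form the difference was 0.02 with a Bayes factor of 0.08. The coding 90-nt exon of SRSF4, at chr1:29150103-29150192 (minus strand), had no exclusion read in any pool, with 482 inclusion reads in siSNRPA1, 284 in siSNRPB and 296 in siCtrl. Its levels were 0.85 in siSNRPA1, 0.87 in siSNRPB and 0.79 in siCtrl.

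**Figure D4:**
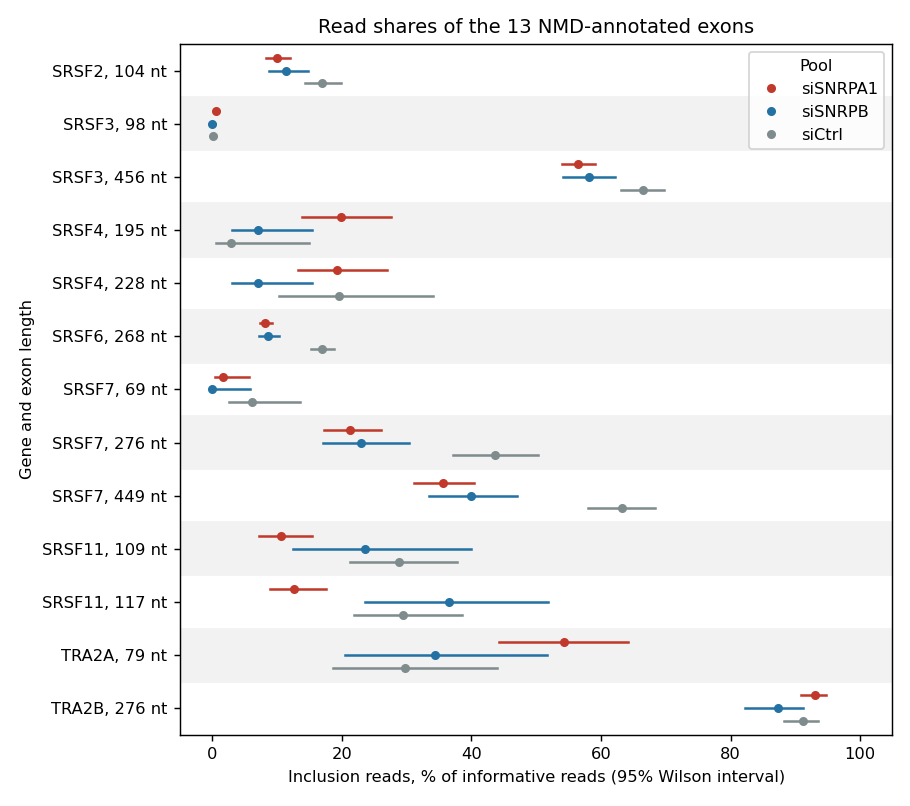
Points give the share of inclusion reads among informative reads, in percent, of the 13 NMD-annotated exons in siSNRPA1 (red), siSNRPB (blue) and siCtrl (grey), with 95% Wilson intervals as lines. The SRSF6 and SRSF7 276-nt and 449-nt intervals of both knockdowns lie below that of siCtrl, while the TRA2A 79-nt share is highest in siSNRPA1 (54.3%).

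TRA2A and TRA2B are SR-like factors related to the fly splicing factor Transformer-2. The poison exon of TRA2B, 276 nt long and GAA-rich as shown above, had inclusion levels of 0.44 in siSNRPA1 (authors' interval 0.40 to 0.48), 0.34 in siSNRPB (0.29 to 0.40) and 0.49 in siCtrl (0.45 to 0.55). Its inclusion reads were 634 of 681 in siSNRPA1 (93.1%, 90.9 to 94.8%), 186 of 213 in siSNRPB (87.3%, 82.2 to 91.1%) and 425 of 466 in siCtrl (91.2%, 88.3 to 93.4%). The siSNRPB level lay below the other two, yet on read shares siSNRPB and siCtrl could not be told apart (exact test, adjusted p = 0.221), whereas the authors' deposited table gives a Bayes factor of 203.76 for that difference of -0.15. Inclusion was higher in siSNRPA1 than in siSNRPB (level difference 0.10, exact test, adjusted p = 0.04), a call that was lost under 4 of 9 other settings: without a minimum of inclusion and exclusion reads (exact test, adjusted p = 0.109), with the read share as the measure, with a difference of 0.2 and with reads divided by 2. The other TRA2B exons were coding and nearly always included, the 134-nt exon at levels of 0.97 in siSNRPA1, 0.91 in siSNRPB and 0.97 in siCtrl, and the 60-nt exon at 0.93, 0.93 and 0.98 in these pools.

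TRA2A has a cluster of alternative exons between the same flanking exons, in forms of 312, 301 and 79 nt with a common 5′ end, and an upstream 90-nt untranslated exon. The 79-nt form lies within the 2 longer forms, so some of its inclusion reads can also fit those. The 79-nt form, at chr7:23522354-23522432 (minus strand), had 50 inclusion reads of 92 informative reads in siSNRPA1 (54.3%, 44.2 to 64.1%), 11 of 32 in siSNRPB (34.4%, 20.4 to 51.7%) and 14 of 47 in siCtrl (29.8%, 18.7 to 44.0%). It was the only SR protein exon that rose in siSNRPA1, with a level of 0.25 against 0.13 in siCtrl (exact test, adjusted p = 0.0273). That call was lost under 6 of 10 other settings, among them the reads divided by 2 (exact test, adjusted p = 0.225), a minimum of 50 informative reads, under which the exon was not tested, and the authors' deposited Bayes factor of 2.62. A second event of this exon, with the 90-nt exon upstream, had a level of 0.26 in siSNRPA1 against 0.36 in siCtrl, the opposite direction, on 36 and 18 informative reads in these pools. Reads that fit neither isoform of the first event were 77.6% in siSNRPA1, 84.1% in siSNRPB and 89.2% in siCtrl, and their part was not tested.

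In their best covered events the 312-nt and 301-nt forms of TRA2A had nearly equal read shares in the pools but unequal levels. The 312-nt form had 273 inclusion reads of 315 in siSNRPA1 (86.7%), 146 of 167 in siSNRPB (87.4%) and 226 of 259 in siCtrl (87.3%), with levels of 0.42 in siSNRPA1, 0.57 in siSNRPB and 0.56 in siCtrl. The 301-nt form had 86.2% in siSNRPA1, 87.1% in siSNRPB and 87.6% in siCtrl, with levels of 0.42, 0.57 and 0.59 in these pools. Neither read share differed by the test (exact test, adjusted p = 0.981 for the 312-nt and 0.829 for the 301-nt form, siSNRPA1 against siCtrl), while the authors' deposited table gives Bayes factors of 11.14 and 17.76 for these differences of -0.14 and -0.17. Their second events, with the 90-nt exon upstream, stood further apart in level. The 312-nt form was there at 0.60 in siSNRPA1, 0.95 in siSNRPB and 0.92 in siCtrl, and the 301-nt form at 0.60, 0.96 and 0.94 in these pools. The shares were 96.5% in siSNRPA1 and 99.6% in siCtrl for the 312-nt form, and 96.4% and 99.6% for the 301-nt form, and missed the threshold over all annotated events (exact test, adjusted p = 0.0636 for the 312-nt and 0.06 for the 301-nt form). The authors' deposited table gives siSNRPA1 differences of -0.32 and -0.34 for these events, with Bayes factors of 1920106.2 and 32668958334.24. Carrying the coding frame into either form met a stop at 141 nt.

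The 90-nt exon of TRA2A, at chr7:23531181-23531270 (minus strand), had 28 inclusion reads of 70 informative reads in siSNRPA1 (40.0%, 29.3 to 51.7%), 0 of 21 in siSNRPB, which allows a share of up to 14.3%, and 17 of 50 in siCtrl (34.0%, 22.4 to 47.8%). It fell in siSNRPB, with a level of 0.02 against 0.15 in siCtrl (exact test, adjusted p = 0.00688), and was higher in siSNRPA1, at 0.14, than in siSNRPB (exact test, adjusted p = 0.00223). It did not pass in siSNRPA1 against siCtrl (exact test, adjusted p = 0.707). Its second event, with the 301-nt form as the downstream exon, gave another result on fewer reads. There 19 of 42 informative reads fit inclusion in siSNRPA1 (45.2%, 31.2 to 60.1%) and 21 of 23 in siCtrl (91.3%, 73.2 to 97.6%), with none of either kind in siSNRPB. In the test over all annotated events this event fell in siSNRPA1, at a level of 0.14 against 0.30 in siCtrl (exact test, adjusted p = 0.00294). The coding 189-nt exon of TRA2A had 1172 inclusion reads of 1173 in siSNRPA1, 399 of 407 in siSNRPB and 493 of 499 in siCtrl, and levels of 0.57, 0.46 and 0.57 in these pools. It passed between the knockdowns (exact test, adjusted p = 0.00139) on a difference in read share of 1.88 points.

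SRSF10, an SR protein that represses splicing when dephosphorylated, gave the largest differences in level among these genes. A coding exon exists in a 51-nt and a 54-nt form, at chr1:23971573-23971623 and chr1:23971573-23971626 (hg38, minus strand), shown here whole because the 2 forms differ only in 3 bases at the 5′ end, in capitals.
SRSF10 51-nt exon: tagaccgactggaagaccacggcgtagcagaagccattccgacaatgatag
SRSF10 54-nt exon: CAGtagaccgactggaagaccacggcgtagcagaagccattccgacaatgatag

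The 54-nt form had 60 inclusion and 4 exclusion reads in siSNRPA1, 15 and 12 in siSNRPB and 61 and 0 in siCtrl. Its levels were 0.77 in siSNRPA1 (authors' interval 0.63 to 0.88), 0.40 in siSNRPB (0.24 to 0.58) and 0.94 in siCtrl (0.84 to 0.99). It fell in siSNRPB against siCtrl (exact test, adjusted p = 2.04e-06) and was higher in siSNRPA1 than in siSNRPB (exact test, adjusted p = 0.00063). The 51-nt form had 19 inclusion reads in siSNRPA1, 10 in siSNRPB and 39 in siCtrl beside the same exclusion reads, and levels of 0.33 in siSNRPA1 (0.21 to 0.45), 0.29 in siSNRPB (0.15 to 0.44) and 0.87 in siCtrl (0.70 to 0.97). It fell in siSNRPB against siCtrl (exact test, adjusted p = 7.4e-06). In siSNRPA1 against siCtrl neither form had the 5 exclusion reads the test asked for, and without that minimum the adjusted p was 0.136 for the 51-nt and 0.554 for the 54-nt form, whereas the authors' deposited table gives a difference of -0.54 with a Bayes factor of 795832132031 for the 51-nt form. These calls rest on 22 to 64 informative reads per pool, and a named pseudogene, SRSF10P1, makes the reads of SRSF10 uncertain. Reads that fit neither isoform of the 51-nt event were 57.7% in siSNRPA1, 56.8% in siSNRPB and 49.9% in siCtrl, and their part was not tested. Both isoforms of these events lack the 102-nt exon described next, which stood at levels of 0.94 to 1.00. The levels of the 51-nt and 54-nt forms thus compare only isoforms without that exon.

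The 102-nt exon of SRSF10, at chr1:23971338-23971439 (minus strand), had no exact match in GENCODE 29, but lies inside a longer annotated SRSF10 exon. Whether its inclusion reads came from a 102-nt exon or from that longer exon was not tested, which also limits its levels. Its reads were all inclusion reads in siSNRPA1 (771) and siSNRPB (220), against 343 inclusion and 19 exclusion reads in siCtrl. The share was higher than in siCtrl in siSNRPA1 (exact test, adjusted p = 1.75e-08) and siSNRPB (exact test, adjusted p = 0.000965). Levels were 1.00 in siSNRPA1, 0.99 in siSNRPB and 0.94 in siCtrl, so the exon did not pass. By the exon coordinates, its exclusion junction is also the downstream inclusion junction of the shorter SRSF10 coding forms described above. Fewer reads over that junction raise the 102-nt share and lower the shares of those forms. The SRSF10 results are thus not independent measurements. Among coding exons, the 36-nt exon of SRSF7 at chr2:38746144-38746179 (minus strand), which codes for part of the arginine/serine-rich region, had a lower share in siSNRPA1. It had 714 inclusion reads of 811 in siSNRPA1 (88.0%, 85.6 to 90.1%), 333 of 350 in siSNRPB (95.1%, 92.4 to 96.9%) and 488 of 509 in siCtrl (95.9%, 93.8 to 97.3%). The share was lower in siSNRPA1 than in siCtrl (exact test, adjusted p = 1.27e-05) and than in siSNRPB (exact test, adjusted p = 0.00113), with levels of 0.87 in siSNRPA1, 0.95 in siSNRPB and 0.95 in siCtrl. The last NMD-annotated exon, the SRSF7 69-nt exon, had 2 inclusion reads of 124 in siSNRPA1, 0 of 63 in siSNRPB, which allows a share of up to 4.76%, and 5 of 82 in siCtrl.

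**Figure D5:**
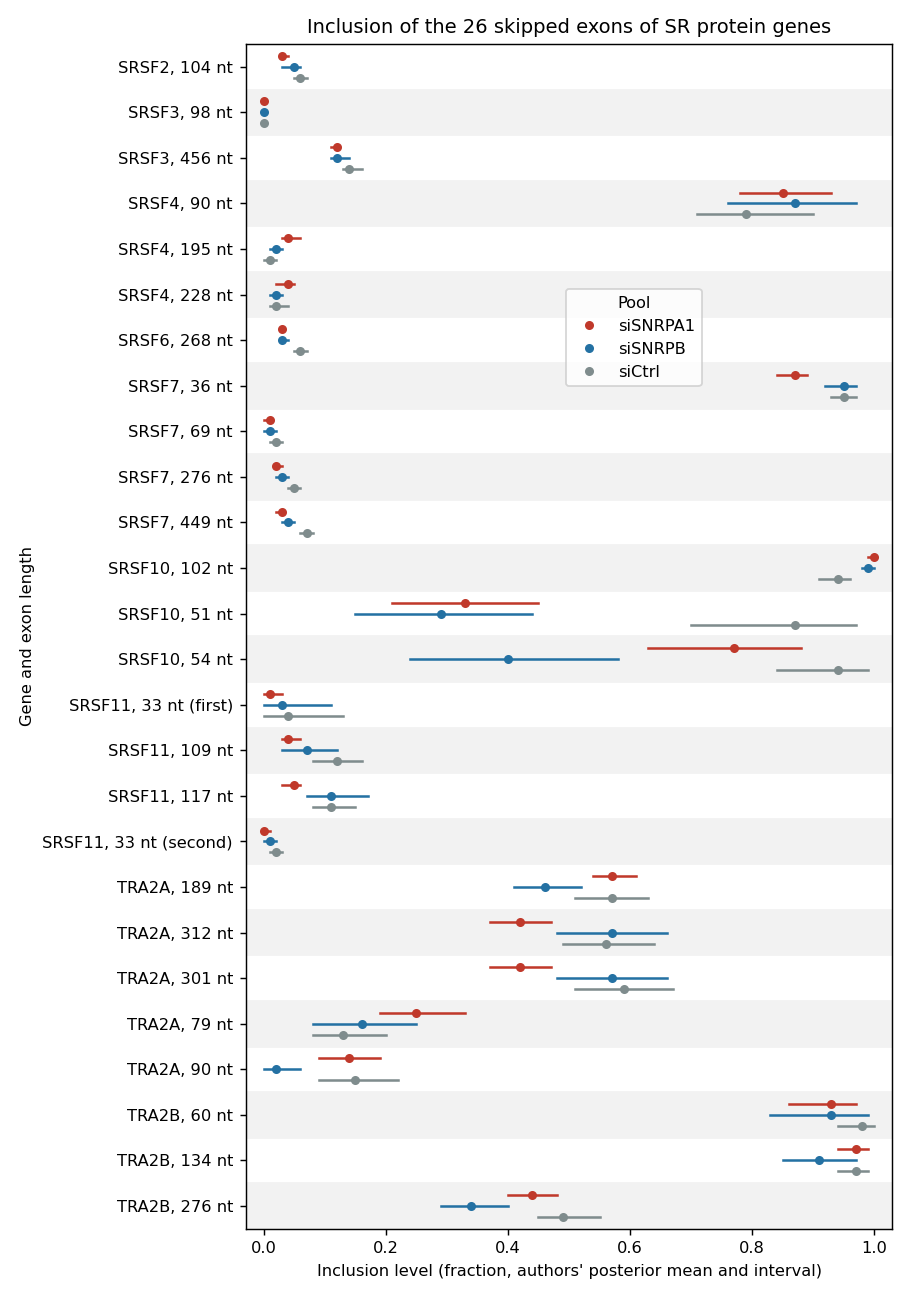
Points give the authors' inclusion level, a fraction, of all 26 skipped exons of the SR protein genes in siSNRPA1 (red), siSNRPB (blue) and siCtrl (grey), with the authors' interval as a line. The SRSF10 51-nt and 54-nt exons stand apart from siCtrl in siSNRPB at 0.29 and 0.40, against 0.87 and 0.94 in siCtrl, while the NMD-annotated exons of SRSF2, SRSF6 and SRSF7 all lie at 0.07 or below.

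In siSNRPA1 against siSNRPB none of the 20 exons tested was lower and 4 were higher, where 6.38% of all 5082 tested exons were lower and 8.28% higher. These were the SRSF10 54-nt, TRA2A 189-nt, TRA2A 90-nt and TRA2B 276-nt exons given above. By the adjusted p alone, the rule added after the data had been seen, 2 of the 20 were lower and 5 higher, against 10.5% lower and 16.4% higher of all tested exons. Among the SRSF2 104-nt, SRSF3 456-nt, SRSF6 268-nt and SRSF7 276-nt and 449-nt exons the shares in siSNRPA1 and siSNRPB differed by -0.42 to -4.37 points, with adjusted p-values of 0.478 to 0.83, which does not show that they were equal.

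The isoform-fitting reads over each gene's best covered event gave a view of how much of the transcript was seen, though not of the whole gene. SRSF6 had 206 RPM in siSNRPA1, 174 in siSNRPB and 148 in siCtrl, and TRA2A had 134 in siSNRPA1, 125 in siSNRPB and 83.0 in siCtrl. The ratio to siCtrl was 1.39 for SRSF6 and 1.62 for TRA2A in siSNRPA1, and 1.17 and 1.51 in siSNRPB. The TRA2A values are of the 189-nt event, while the 312-nt event of the same gene had 31.8 RPM in siSNRPA1, 30.2 in siSNRPB and 28.8 in siCtrl. Over 7544 genes, with the reads summed over each gene's exons, the quartiles of that ratio were 0.839 and 1.15 in siSNRPA1, and 0.731 and 1.18 in siSNRPB. SRSF4 had 391 RPM in siSNRPA1, 549 in siSNRPB and 385 in siCtrl, a ratio of 1.02 in siSNRPA1 and 1.43 in siSNRPB. For the other genes the ratio was 0.995 (SRSF10) to 1.33 (SRSF11) in siSNRPA1 and 0.868 (SRSF7) to 1.27 (SRSF11) in siSNRPB. Here too other events of a gene could give another value. The SRSF7 276-nt event had 82.3 RPM in siSNRPB against 74.8 in siCtrl, and the SRSF10 102-nt event 50.8 against 80.0. With 1 pool per group no test was made. RPM is scaled to the reads of each pool, so neither cell number nor RNA per cell can be read from it.

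Other genes of SR protein biology were counted by the same test, and their counts are to be read beside the 12.8% that fell and 4.18% that rose of all tested exons in siSNRPA1, and the 16.7% and 4.62% in siSNRPB. Of the SR protein kinases, which phosphorylate the arginine/serine-rich region, 1 of 7 exons fell in siSNRPA1, the PRPF4B 162-nt exon (0.06 against 0.28 in siCtrl, exact test, adjusted p = 0.00151), and in siSNRPB 1 of 3 rose, the CLK4 91-nt exon (0.97 against 0.76 in siCtrl, exact test, adjusted p = 0.00895). Of the SR-related cofactors, 3 of 27 exons fell and 0 rose in siSNRPA1, and 3 of 22 fell and 1 rose in siSNRPB. The SRRM1 42-nt exon, of a splicing coactivator, was among those that fell, at 0.24 in siSNRPA1 and 0.17 in siSNRPB, against 0.61 in siCtrl (exact test, adjusted p = 3.96e-13 in siSNRPA1 and 9.93e-13 in siSNRPB). Of the NMD factors, which degrade poison-exon transcripts, 4 of 17 exons fell and 2 rose in siSNRPA1, and 1 of 13 fell and 0 rose in siSNRPB. Of other genes with described poison exons, 0 of 45 fell and 1 rose in siSNRPA1, and 5 of 41 fell and 1 rose in siSNRPB. By the rule without a minimum difference, 5 of the 13 NMD-annotated exons of that last list had a lower share and 0 a higher share in siSNRPA1, and 8 of 13 a lower and 0 a higher share in siSNRPB, where 17.9% of all NMD-annotated exons had a lower share in siSNRPA1 and 22.2% in siSNRPB. The remaining SR proteins, SRSF1, SRSF8, SRSF9 and SRSF12, had 1 tested exon in each comparison with siCtrl, and it did not pass.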

How the data were processed

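RNA of 6 MDA-LM2 libraries was prepared with a stranded total RNA kit, per the labels' protocols, and STAR 2.7 and hg38 are named in the submitters' processing notes. Skipped-exon events were deposited as 1 summary per group, with the column names of the program MISO. Not given in the sources used here are its version and settings, whether strand was used and how libraries were combined. Per the file headers, the inclusion level is a fraction with an interval, and read counts are given by the isoforms they fit. The authors also deposited comparisons of each knockdown with siCtrl, holding the change in inclusion level as a score between -1 and 1, and as a ratio the Bayes factor. Within rounding, the deposited differences matched the summaries in 44653 of 44653 siSNRPA1 events and 38112 of 38112 siSNRPB events.

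Where events shared a skipped exon, only the event best covered by informative reads, summed over the pools, was used. Genes, exon classes, stop codons and sequences came from GENCODE 29, with coordinates counted from 1. Fisher's exact test ran on the informative reads of each exon in 2 pools, with Benjamini-Hochberg adjustment over all tested exons of the table. An exon needed 20 informative reads in each pool and 5 inclusion and 5 exclusion reads over both. Reads carry no described molecular identifiers, so intervals, tests and the limit of 3 reads for a count of 0 cover counting error only. Replicates enter as pools, and whether libraries came from separate cultures is not stated. The series design text names SNRPB2 in 1 place and 2 siRNAs against SNRPB; the labels, followed here, name SNRPB and 1 library. Exons were described where each pool had 20 informative reads, where they passed in any comparison, or where they were NMD-annotated with 20 informative reads in any pool; of other lists up to 3 passing exons could be named. The genes and lists were chosen with earlier results of these data known. The procedure was tested on simulated data. Alternatives varied the read minimums, the inclusion measure, the minimum difference, the choice of event, the depth and the test. The software was matplotlib 3.10.9, pandas 2.3.3, numpy 2.4.6 and scipy 1.17.1 under Python 3.11.15.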

Additional observations from a re-analysis of the deposited data

Results flagged for a closer look

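In the direct comparison of siSNRPA1 with siSNRPB, 4 of the 20 SR protein exons tested passed. They had an adjusted p under 0.05 and a level difference of 0.1 or more. The test was Fisher's exact test with Benjamini-Hochberg adjustment over 5082 exons. By the adjusted p alone, 2 of the 20 had a lower and 5 a higher share of inclusion reads in siSNRPA1. Each group is 1 pool, so the test covers counting error only and does not test the effects of the knockdowns over replicates. The SRSF10 54-nt exon differed by 0.37 in inclusion level, at 0.77 in siSNRPA1 and 0.40 in siSNRPB, where siCtrl stood at 0.94 (exact test, adjusted p = 0.00063). The TRA2A 90-nt exon differed by 0.12, at 0.14 in siSNRPA1 and 0.02 in siSNRPB, where siCtrl stood at 0.15 (exact test, adjusted p = 0.00223). The TRA2A 189-nt exon differed by 0.11, at 0.57 in siSNRPA1 and 0.46 in siSNRPB, where siCtrl stood at 0.57 (exact test, adjusted p = 0.00139). The TRA2B 276-nt poison exon differed by 0.10, at 0.44 in siSNRPA1 and 0.34 in siSNRPB, where siCtrl stood at 0.49 (exact test, adjusted p = 0.04). Of 9 other settings, 2 ended the call of the SRSF10 54-nt exon, 3 that of the TRA2A 90-nt exon, 3 that of the TRA2A 189-nt exon and 4 that of the TRA2B 276-nt exon.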

How the results depend on the processing

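Counts of SR protein exons that passed are given for siSNRPA1 against siCtrl (1 by the rule used), siSNRPB against siCtrl (3) and siSNRPA1 against siSNRPB (4). With a minimum of 50 informative reads they were 0, 0 and 2, and with all reads divided by 2 they were 0, 0 and 0. In siSNRPA1 against siCtrl the count was 0 without a minimum of inclusion or exclusion reads, 0 with a minimum difference of 0.2, 0 with reads thinned to the smallest pool, 2 over all annotated events (1 fell, the second event of the TRA2A 90-nt exon, and 1 rose), and 2 by the authors' deposited Bayes factor, both of which fell. With the share of inclusion reads in place of the level it was 5 in siSNRPA1 against siCtrl, 4 of them lower (13.0% lower and 6.22% higher of all tested exons), and 5 in siSNRPB against siCtrl, all lower (18.0% and 6.15% of all). With a minimum difference of 0.2 it was 1 between the knockdowns. Without a minimum difference, but with level and read share required to move the same way, a setting chosen after seeing the data, the counts were 10, 9 and 7, with 8, 8 and 2 of them lower, where 21.4%, 28.0% and 10.3% of all tested exons were lower and 9.18%, 8.91% and 15.7% higher. The cause of these moves was not tested, apart from settings that test fewer exons or reads by construction. Of 564 values of single exons still tested under other settings, 519 kept direction and side of the threshold, 29 passed newly, 13 no longer passed and 3 changed sign. Those 3, none of which passed, were siSNRPA1 against siCtrl with the share of inclusion reads: SRSF4 228-nt -0.0031, TRA2B 276-nt 0.019 and TRA2A 90-nt 0.06. Calls lost because the exon was no longer tested under a setting are not in the 13, but are in the lost calls given per exon above.

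No paired analysis was possible because each group has 1 pooled set of values, and for the same reason leaving out replicates was not possible. Depth limits the SRSF10 51-nt and 54-nt exons, with 22 to 64 informative reads per pool, and the siSNRPB pool, which had 3396043 informative reads against 5707839 in siCtrl.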
